A study of Mus musculus with 12 samples.

Results

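Transcripts of 42 cell cycle and mitosis genes were followed in whole mouse ears at 3 ages and in 2 genotypes. The genes were taken from a fixed list of cyclins, cyclin-dependent kinase 1, replication factors, mitotic kinases, spindle checkpoint proteins, kinesins and proliferation markers. Each gene was represented by 1 probe set, the brightest on average over the 12 arrays of those that the array annotation assigns to that gene alone. Of the 42 genes, 41 had such a probe set, out of 18194 genes on the array, and 40 reached the level required for testing, among 11984 tested genes. All 40 had a log2 value of 4 or more on all 12 arrays, so none was tested only through a group in which it was high. Ccnb1, which encodes cyclin B1, had no probe set assigned to it alone and has no value here. The probe set of Tyms, thymidylate synthase, lay near the floor of the scale on all 12 arrays and was not tested. The chosen probe set of Foxm1, a transcription factor for mitotic genes, was called absent on all 12 arrays, so no fold is given from it, although it stays in the counts of 40. Another probe set of Foxm1 was called present on all 12 arrays, but at low levels of 3.28 to 5.07, with 4 or more on 9 arrays. These calls do not settle whether the transcript was present.

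RNA came from whole ears of mice homozygous for Spade (Spade/Spade, called mutant below) and of wild-type littermates, with 2 arrays for each genotype at 2, 4 and 6 weeks of age. Spade is known as a gain-of-function allele of the tyrosine kinase Jak1, and homozygous mice as developing a progressive dermatitis. The labels give the samples of a group numbers but do not say whether they are different animals, and p-values cover no more than the spread between these samples. Values are log2 expression levels after GCRMA, a normalization that corrects probe intensities for background binding by sequence, and a difference of 1 on this scale is a 2-fold difference. A gene was called changed when its adjusted p was under 0.05 in limma, a linear model fitted to all tested genes with the spread shared over 6 groups.

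Between 52.3% and 58.1% of the 45101 probe sets of an array were called present, and replicate arrays correlated at 0.985 to 0.994 over the tested genes in 5 groups. The 2 arrays of the 2-week mutants correlated at 0.939, and replicate 3 of that group stood apart. Its summed log2 level over the 18 tested of 21 hair matrix and shaft genes was 216, while the other 11 arrays lay between 68.3 and 122. Its sums for 10 skeletal muscle genes and 10 cartilage genes were 100.2 and 87.1, the lowest of the 12 arrays in each case. Results that rest on this array are therefore given with and without it. Genes of skin in general were expressed on every array, with summed levels of 104.5 to 111 for 8 basal epidermis genes and 86.5 to 90.0 for 6 fibroblast genes. The lowest basal epidermis sum was that of 2-week mutant replicate 3. In whole tissue, fewer cycling cells and less of a transcript per cell cannot be told apart.

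Cells that divide copy their DNA in S phase and separate the copies in mitosis, and the transcripts of these phases follow one another. E2F factors drive the genes of DNA replication around the entry into S phase, and a later wave of mitotic genes is switched on in G2 by the MuvB complex with B-Myb and Foxm1. In skin, cycling cells lie mainly in the basal epidermis and in the matrix of growing hair follicles, and mouse follicles pass through synchronous growth and rest in the first weeks of life.

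The promoters of these genes were searched for motifs of both waves, and some are shown because the results below take the genes of S phase and of mitosis apart. RefSeq promoter windows (build GRCm38.p6, 250 bases before to 50 bases after the annotated start) were found for 32 of the 40 tested genes and were searched on both strands for 3 motifs. These were the CHR (cell cycle genes homology region, TTTGAA), the CCAAT box (CCAAT, the site of NF-Y), and an E2F site (the letters TTTGGCG, the variant TTTCCCG, the variant TTTCGCG or the variant TTTGCCG, whose matches can overlap). A gene was counted when any of its windows matched, while the shares of all are counted per window. The CHR occurred in 14 of 19 G2 and mitosis genes and in 2 of 13 G1/S and S phase genes, against 17.9% of all 32851 windows. A CHR together with a CCAAT box occurred in the same 14 and 2 genes, against 6.95% of all windows. The E2F letters occurred in 6 of 13 S phase genes and in 3 of 19 mitotic ones, against 6.7% of all windows. A match describes these letters only and is not evidence of binding.

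The stretches below are 180 bases ending at the annotated start (38 bases before it for Ttk), read 5′ to 3′ on the gene's strand, with matches to the 3 motifs in capitals. Kif11, Cdk1, Ube2c and Bub1 are mitotic genes whose 6-week wild-type arrays lay below the 2-week ones, Ttk is the gene whose mutant arrays lay below the wild-type ones at each age, and Pcna and Mcm6 are genes of DNA replication.
Kif11 (chr19:37376202-37376381, plus strand): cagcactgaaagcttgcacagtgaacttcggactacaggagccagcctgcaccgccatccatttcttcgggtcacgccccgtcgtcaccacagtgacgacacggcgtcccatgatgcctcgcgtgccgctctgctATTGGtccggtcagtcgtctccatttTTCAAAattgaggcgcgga
Cdk1 (chr10:69352913-69353092, minus strand): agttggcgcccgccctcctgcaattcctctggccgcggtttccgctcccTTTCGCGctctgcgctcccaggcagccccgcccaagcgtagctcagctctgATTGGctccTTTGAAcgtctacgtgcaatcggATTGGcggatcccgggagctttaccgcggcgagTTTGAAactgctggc
Ube2c (chr2:164769749-164769928, plus strand): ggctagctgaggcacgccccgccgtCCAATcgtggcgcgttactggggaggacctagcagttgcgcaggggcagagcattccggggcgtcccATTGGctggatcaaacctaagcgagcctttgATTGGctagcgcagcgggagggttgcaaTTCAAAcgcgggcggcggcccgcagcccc
Bub1 (chr2:127831860-127832039, minus strand): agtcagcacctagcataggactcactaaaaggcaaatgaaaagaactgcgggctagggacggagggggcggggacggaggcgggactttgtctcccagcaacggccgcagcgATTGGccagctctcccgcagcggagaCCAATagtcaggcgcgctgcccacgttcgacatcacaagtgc
Ttk (chr9:83834471-83834650, plus strand): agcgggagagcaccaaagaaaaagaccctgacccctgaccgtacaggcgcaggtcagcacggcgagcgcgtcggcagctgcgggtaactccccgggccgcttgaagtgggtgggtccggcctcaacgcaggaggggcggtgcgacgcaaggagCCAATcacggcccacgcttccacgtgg
Pcna (chr2:132253181-132253360, minus strand): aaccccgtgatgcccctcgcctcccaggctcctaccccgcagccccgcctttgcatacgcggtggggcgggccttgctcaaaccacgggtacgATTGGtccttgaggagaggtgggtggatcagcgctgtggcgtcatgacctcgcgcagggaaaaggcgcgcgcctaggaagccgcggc
Mcm6 (chr1:128359706-128359885, minus strand): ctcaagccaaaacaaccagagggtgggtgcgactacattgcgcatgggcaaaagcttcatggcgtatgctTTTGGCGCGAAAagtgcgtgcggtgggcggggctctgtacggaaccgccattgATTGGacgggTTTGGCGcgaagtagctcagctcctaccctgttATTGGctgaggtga
Kif11 and Ube2c carry the CHR on the opposite strand (TTCAAA), and Cdk1 carries it at 2 places beside an E2F match. Bub1 has CCAAT boxes but no CHR in its window, and the CHR of Ttk's window lies outside the stretch shown. Mcm6 has 3 E2F matches and no CHR, while Pcna has 1 CCAAT box and neither of the other motifs.

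Genes of mitosis and genes of S phase differed in how their levels moved over the 12 arrays. The mean log2 level of the 24 G2 and mitosis genes was 8.78 and 8.66 on the 2-week wild-type arrays, 8.89 and 7.91 at 4 weeks, and 7.65 and 8.12 at 6 weeks. On the mutant arrays it was 8.15 and 8.97 at 2 weeks, with replicate 3 the higher, 7.89 and 8.21 at 4 weeks, and 8.17 and 8.13 at 6 weeks. The mean of the 16 S phase genes stayed between 9.33 and 9.76 on all 12 arrays. The lowest of these was 2-week mutant replicate 2 and the highest 4-week wild-type replicate 3.

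**Figure D1:**
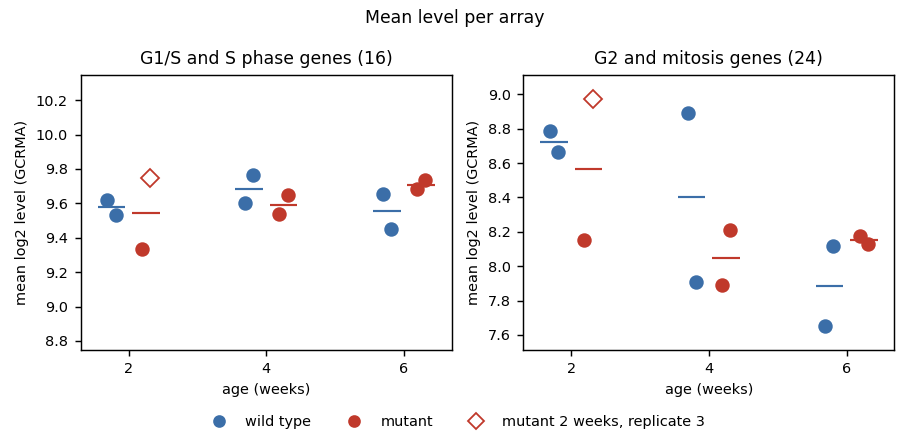
Mean log2 GCRMA level of 16 G1/S and S phase genes (left) and 24 G2 and mitosis genes (right) on each of 12 arrays, by age, with wild type in blue, mutant in red, a line at each group's mean and 2-week mutant replicate 3 as an open diamond. Both vertical axes span the same number of log2 units. The mitotic means run from 7.65 to 8.97 and differ within groups, while the S phase means run from 9.33 to 9.76.

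**Figure D2:**
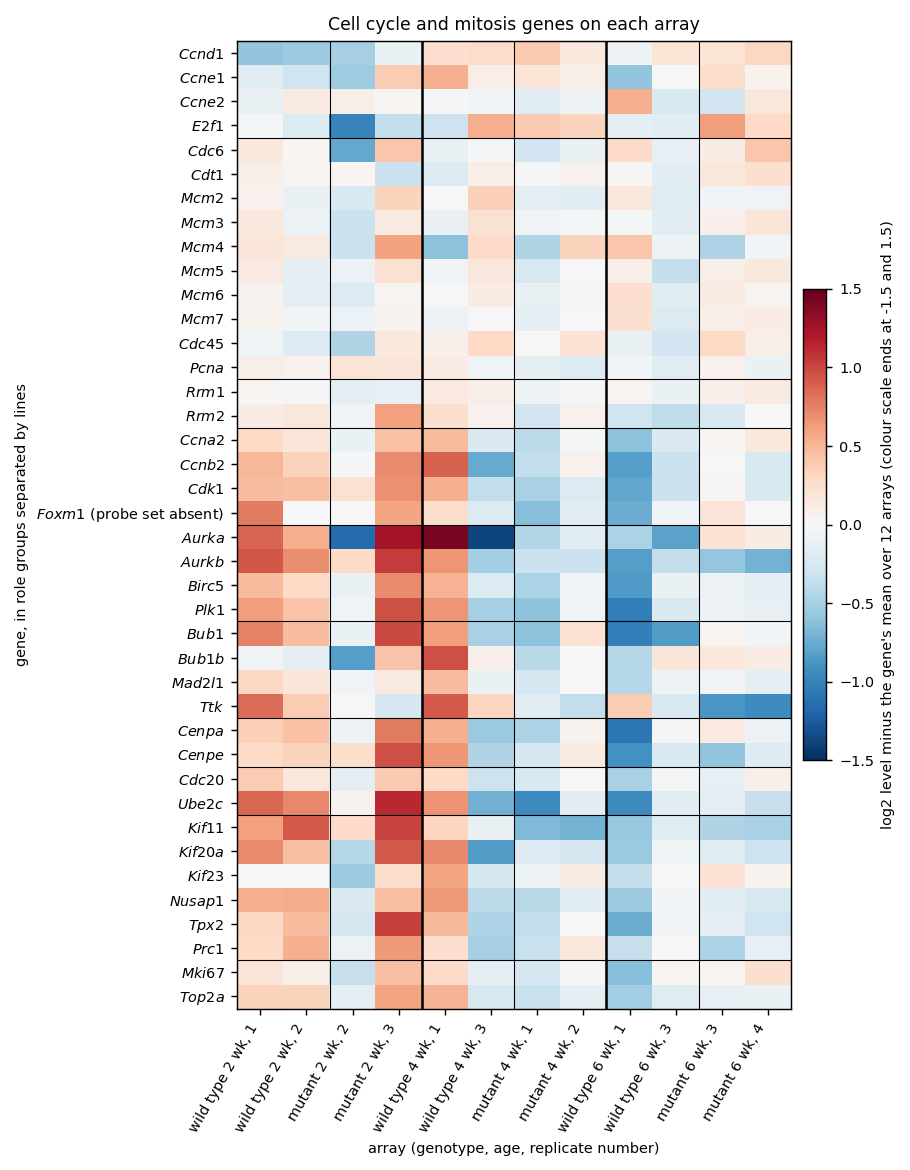
Log2 level of each tested gene on each array minus the gene's mean over 12 arrays, with genes in role groups from G1/S (top) to chromosome structure (bottom) and the chosen probe set of Foxm1 marked as absent by detection call. Most mitotic genes, Ttk among them, are high together on 4-week wild-type replicate 1. Most other than Ttk are also high together on 2-week mutant replicate 3 and low together on 6-week wild-type replicate 1.

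The first comparison followed wild-type ears from 2 to 6 weeks. Kif11, the motor protein that pushes spindle poles apart, fell, and it was the 1 gene of 40 that was called, where 4.82% of all tested genes were called and 1.51% were called lower. Its level was 7.99 and 8.29 at 2 weeks, 7.69 and 7.27 at 4 weeks, and 6.80 and 7.19 at 6 weeks in wild type. In mutants it was 7.67 and 8.39, then 6.71 and 6.66, then 6.92 and 6.89. All 4 arrays of 2 weeks overlapped little with the later ones: the lowest of them, mutant replicate 2, lay just below 4-week wild-type replicate 1. In wild type the fall from 2 to 6 weeks was 2.21-fold (log2 difference -1.14 ± 0.26, SE, n = 2 per group, adjusted p = 0.046). The call held without either 2-week mutant array (adjusted p = 0.0139 without replicate 2 and 0.0141 without replicate 3), but leaving out any of the other 10 arrays raised the adjusted p above the threshold, up to 0.228. The other 2 probe sets of Kif11 gave differences of -1.12 and -2.24. Without 2-week mutant replicate 3, which enters this comparison only through the estimate of the spread, 4 of the 40 genes were called, against 12.5% of all tested genes. Beside Kif11 these were Aurkb (adjusted p = 0.0357) and Bub1 (adjusted p = 0.0367), which fell, and Ccnd1 (adjusted p = 0.0193), which rose.

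All 24 G2 and mitosis genes had a negative difference between 6 and 2 weeks in wild type, against 37.7% of all tested genes. Their median difference was -0.85, that of the 16 S phase genes was -0.03, and that of all tested genes was 0.10. The mitotic genes also moved together between replicates, so their signs do not count as independent results. In wild type at 4 weeks, replicate 1 was above replicate 3 for all 24, with a median gap of 0.90. At an unadjusted p under 0.05 there were 11 of the 24 mitotic genes and 2 of the 16 S phase genes, against 24.6% of all tested genes. Both 6-week arrays lay below both 2-week arrays for 22 of the 24 mitotic genes, all but Bub1b and Kif23, and for 3 of the 16 S phase genes, Cdt1, Pcna and Rrm2. Of all tested genes, 20.7% were separated in that direction. All 2-week arrays carry serial numbers in a run of their own in the labels, so age and that run cannot be told apart.

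Among the cyclins and the kinase that start mitosis, Cdk1, the catalytic subunit of the mitotic kinase, read 9.59 and 9.57 at 2 weeks and 8.34 and 8.80 at 6 weeks in wild type. Ccnb2, which encodes a B-type cyclin that activates Cdk1, read 9.47 and 9.31, then 8.14 and 8.64. The groups did not overlap for either gene. The difference was -1.01 ± 0.30 for Cdk1 (adjusted p = 0.0834) and of the same size for Ccnb2 with a wider error of 0.47 (adjusted p = 0.231), neither past the threshold. The level of Ccna2, cyclin A2 of S phase and G2, differed by -0.66 ± 0.27. The second probe set of Foxm1, with low levels of 3.28 to 5.07, gave -0.81 in wild type and 0.86 in mutants.

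Among the mitotic kinases, Aurkb, the kinase of the chromosomal passenger complex, read 8.49 and 8.25 at 2 weeks, 8.22 and 7.05 at 4 weeks, and 6.74 and 7.20 at 6 weeks in wild type. In mutants it read 7.86 and 8.61, then 7.24 and 7.24, then 6.98 and 6.85. In both genotypes the 6-week arrays lay below the 2-week arrays, by -1.40 ± 0.37 in wild type (adjusted p = 0.066) and -1.32 ± 0.37 in mutants (adjusted p = 0.058). Without 2-week mutant replicate 3 the mutant difference was -0.94. On all arrays, the other probe set of Aurkb gave -1.15 in wild type and -1.07 in mutants. Aurka, the centrosomal Aurora kinase, read 6.44 and 6.12 at 2 weeks, 6.99 and 4.19 at 4 weeks, and 5.09 and 4.76 at 6 weeks in wild type, and 4.42 and 6.81, 5.13 and 5.42, then 5.78 and 5.68 in mutants. Its replicates were 2.80 apart in wild type at 4 weeks and 2.40 apart in mutants at 2 weeks, more than its difference between ages of -1.35 ± 0.90. Plk1, the Polo kinase of mitotic entry and spindle assembly, differed by -1.15 ± 0.46, and Birc5, survivin, the partner of Aurora B, by -0.86 ± 0.35.

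Bub1, a kinase of the spindle checkpoint at kinetochores, had the most negative difference of the 40 genes in wild type. It read 7.48 and 7.21 at 2 weeks, 7.36 and 6.26 at 4 weeks, and 5.72 and 5.91 at 6 weeks, a difference of -1.53 ± 0.45 between 6 and 2 weeks (adjusted p = 0.0815). In mutants it read 6.64 and 7.73 at 2 weeks, 6.13 and 6.97 at 4 weeks and 6.79 and 6.70 at 6 weeks, and these groups overlapped. Mad2l1, which encodes the checkpoint inhibitor Mad2, differed by -0.50 ± 0.20 in wild type. Bub1b, which encodes the checkpoint protein BubR1, stood near zero at -0.03 ± 0.42, with wild-type arrays at 7.59 and 7.49 at 2 weeks and 7.21 and 7.81 at 6 weeks. Its second usable probe set gave -0.78.

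At the centromere, Cenpa, the centromeric histone H3 variant, read 9.13 and 9.21 at 2 weeks and 7.70 and 8.75 at 6 weeks in wild type. Cenpe, a kinetochore kinesin, read 6.80 and 6.83, then 5.59 and 6.28. Their differences were -0.95 ± 0.45 and -0.89 ± 0.40, and neither passed the test. Of the genes around the anaphase-promoting complex, the ubiquitin ligase that ends mitosis, Ube2c, its ubiquitin-conjugating enzyme, read 9.51 and 9.36, then 7.69 and 8.48. Cdc20, its activator, read 11.35 and 11.13, then 10.48 and 10.94. The differences were -1.35 ± 0.51 for Ube2c (adjusted p = 0.149) and -0.53 ± 0.25 for Cdc20.

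The 5 spindle and cytokinesis genes beside Kif11 had differences from -0.89 to -0.18. Kif20a, a kinesin of the cleavage furrow, read 8.47 and 8.22 at 2 weeks and 7.20 and 7.70 at 6 weeks in wild type (-0.89 ± 0.52). It was called present on 9 of 12 arrays. Nusap1, which bundles spindle microtubules, gave -0.84 ± 0.34, Tpx2, the activator of Aurora A, -0.79 ± 0.44, and Prc1, the crosslinker of the central spindle, -0.60 ± 0.33. Kif23, a kinesin of the central spindle, gave -0.18 ± 0.32 by its chosen probe set and -1.60 by its other usable one. Top2a, the DNA topoisomerase that untangles chromosomes, read 10.70 and 10.69, then 9.84 and 10.17 (-0.69 ± 0.28). The proliferation marker Mki67, which encodes Ki-67, read 11.27 and 11.17, then 10.44 and 11.12 (-0.45 ± 0.29). None of these genes passed the test.

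Of the 16 genes of G1 and S phase, 10 had a negative and 6 a positive difference in wild type. Ccnd1, cyclin D1 of the G1 phase, read 11.37 and 11.41 at 2 weeks, 12.21 and 12.23 at 4 weeks, and 11.88 and 12.16 at 6 weeks in wild type. Its difference between 6 and 2 weeks was 0.63 ± 0.15 (adjusted p = 0.051), and that between 4 and 2 weeks was 0.83 ± 0.15 (adjusted p = 0.0619). In mutants it read 11.46 and 11.86, 12.35 and 12.11, then 12.16 and 12.26, so that all 4-week and 6-week arrays lay above all 2-week ones. It was the only one of the 40 genes with both 6-week wild-type arrays above both 2-week ones, a separation seen in 40.3% of all tested genes. Its other 2 probe sets gave 1.08 and 0.54 for this difference.

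Among the replication genes, Pcna, the sliding clamp of DNA polymerase, read 13.08 and 13.05 at 2 weeks and 12.95 and 12.81 at 6 weeks in wild type (-0.18 ± 0.10). Cdt1, a licensing factor that loads the Mcm helicase, read 9.83 and 9.78, then 9.75 and 9.57 (-0.14 ± 0.15). The 6 genes of the Mcm helicase subunits, Mcm2 to Mcm7, had differences from -0.14 to 0.09, Cdc6, another licensing factor, one of -0.01, and Cdc45, the helicase's cofactor, one of -0.07. None of these 10 genes passed the test. Other usable probe sets went further in wild type, with -0.80 for 1 of Mcm3, -0.51 for Cdt1 and -0.40 for 1 of Mcm7. Ccne2, cyclin E2 of the G1/S transition, read 8.74 and 8.99, then 9.40 and 8.63, and the groups overlapped.

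The subunits of ribonucleotide reductase, which makes deoxynucleotides, also differed between probe sets. Rrm2, the small subunit, read 10.73 and 10.78 at 2 weeks and 10.31 and 10.23 at 6 weeks in wild type (-0.48 ± 0.21), while its other 2 probe sets gave -0.91 and -1.62. Rrm1, the large subunit, read 10.44 and 10.38, then 10.45 and 10.31 (-0.03 ± 0.10), while its second usable probe set gave -0.95. Over all 40 genes, 28 further probe sets of 21 genes had usable levels, and 24 of the 28 had the sign of the chosen probe set in this comparison.

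**Figure D3:**
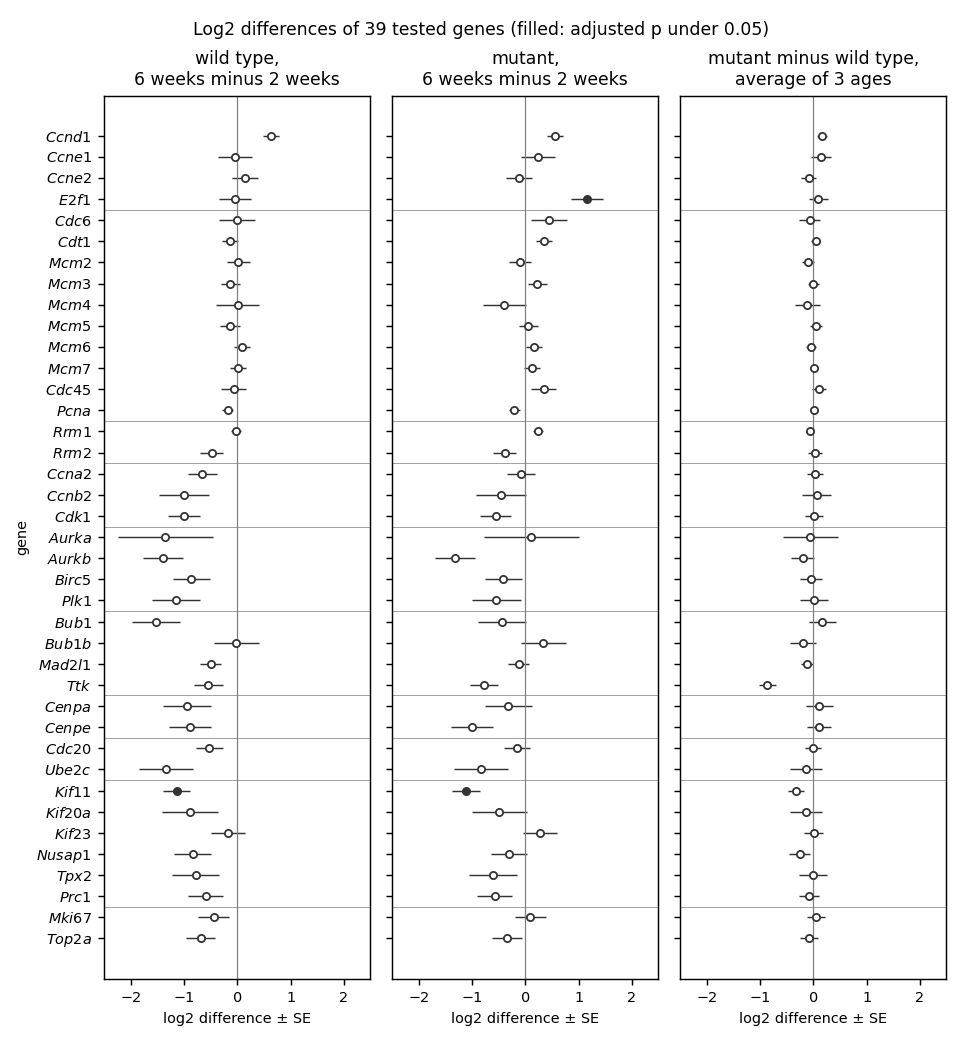
Log2 difference ± SE of each tested gene other than Foxm1 for wild type at 6 minus 2 weeks (left), mutant at 6 minus 2 weeks (middle) and mutant minus wild type averaged over 3 ages (right), with filled points for adjusted p under 0.05. Mitotic genes lie below zero in the left panel, and Kif11 is filled in the first 2 panels and E2f1 in the middle one. In the right panel Ttk lies farthest from zero at -0.87 and is not filled.

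The same span in the mutants gave 2 calls among the 40 genes, where 9.94% of all tested genes were called. Kif11 fell by 1.12 ± 0.26 on the log2 scale (adjusted p = 0.0334), a 2.18-fold difference. E2f1, the transcription factor that activates S phase genes, rose 2.22-fold (1.15 ± 0.30, adjusted p = 0.0451). E2f1 read 5.83 and 6.46 at 2 weeks, 7.23 and 7.17 at 4 weeks and 7.46 and 7.14 at 6 weeks in mutants. In wild type it read 6.82 and 6.63, 6.52 and 7.38, then 6.70 and 6.68, and the 6-week arrays overlapped those of 2 weeks. The second probe set of E2f1 gave a mutant difference of 0.12.

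By role, the remaining mutant differences between 6 and 2 weeks lay nearer to zero for most mitotic genes than the wild-type ones, and none passed the test. Cdk1 gave -0.56 ± 0.30, Ccnb2 -0.46 ± 0.47, Ube2c -0.83 ± 0.51, Plk1 -0.55 ± 0.46 and Birc5 -0.41 ± 0.35. Without 2-week mutant replicate 3 these 5 differences were -0.33, -0.10, -0.30, -0.04 and -0.01. Cenpe, at -1.01 ± 0.40 (adjusted p = 0.132), and Ttk, at -0.78 ± 0.27 (adjusted p = 0.0982), lay farther from zero than in wild type, but without that array Cenpe gave -0.66, nearer to zero than in wild type, and Ttk -0.91. Aurka, Bub1b, Kif23 and Mki67 had positive differences of 0.11 ± 0.90, 0.33 ± 0.42, 0.28 ± 0.32 and 0.09 ± 0.29, and of 1.31, 0.96, 0.69 and 0.49 without the array. On the S phase side, Ccnd1 gave 0.55 ± 0.15 (adjusted p = 0.0533), Cdt1 0.35 ± 0.15, Rrm1 0.24 ± 0.10 and Cdc6 0.44 ± 0.34, while Pcna gave -0.21 ± 0.10 and Rrm2 -0.39 ± 0.21. Without the array Cdt1 gave 0.18, Cdc6 1.03 and Rrm2 -0.05. The differences between the genotypes in these changes were tested for each gene, and limma called none (0% of all tested genes), with 1 of the 40 at an unadjusted p under 0.05, against 5.46%. Their median was 0.37 with 33 of 40 positive, and without 2-week mutant replicate 3 it was 0.69 with 37 positive. The share of all tested genes with a positive sign is not given here for this comparison.

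The calls of Kif11 and E2f1 leaned on single arrays. Without 2-week mutant replicate 3, the fall of Kif11 in mutants was -0.76 ± 0.25 (adjusted p = 0.097), and leaving out either 2-week wild-type array, either 4-week mutant array or either 6-week mutant array also ended the call, with adjusted p up to 0.139. The E2f1 call held without 2-week mutant replicate 3 (1.47, adjusted p = 0.0368) or without either 4-week wild-type array, and was lost in the other 9 single omissions, with adjusted p up to 0.204. Between 4 and 2 weeks in mutants, Kif11 was again the 1 call of 40, against 1.91% of all tested genes. It fell by 1.34 ± 0.26 (adjusted p = 0.0436), and this call held in 1 of 12 single omissions, that of 2-week mutant replicate 2 (adjusted p = 0.00374), with adjusted p up to 0.179 in the others.

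As a group, the mitotic genes of the mutants had a median difference of -0.43 between 6 and 2 weeks, with 20 of 24 negative, against 38.2% of all tested genes. Without 2-week mutant replicate 3 the median was 0.02, with 11 of 24 negative. The S phase genes of the mutants had a median of 0.19 with that array and 0.23 without it. Both 6-week mutant arrays lay below both 2-week ones for 8 of the 24 mitotic genes, against 17% of all tested genes, and above them for 6 of the 16 S phase genes, against 36.2%. In wild type, no gene of the 40 was called between 4 and 2 weeks or between 6 and 4 weeks, where limma called 0.459% and 0% of all tested genes. At an unadjusted p under 0.05 there were 2 and 1 of the 40, against 14.6% and 7.11% of all tested genes. In mutants, limma called none between 6 and 4 weeks (0% of all tested genes), and 1 of the 40 had an unadjusted p under 0.05, against 4.46%.

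The second comparison asked whether mutant and wild-type ears differed in these genes, as the study's design does for all genes. None of the 40 genes was called by limma on average over the 3 ages (0.643% of all tested genes), at 2 weeks (0%), at 4 weeks (0%) or at 6 weeks (0.0334%). At an unadjusted p under 0.05 there were 1, 1, 2 and 1 of the 40 genes in these 4 comparisons, against 14.8%, 8.11%, 3.6% and 11.9% of all tested genes. The rank product criterion named in the study's design called none of them either. On average over ages the median difference of the 40 genes was -0.01, against -0.03 for all tested genes. Without 2-week mutant replicate 3 it was -0.09, with 37 of 40 negative and none called. Of the 28 further probe sets with usable levels, 16 had the sign of the chosen one in this average.

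Ttk, the checkpoint kinase also called Mps1, which recruits the other checkpoint proteins to kinetochores, had the average difference farthest from zero of the 40. In wild type it read 8.79 and 8.34 at 2 weeks, 8.87 and 8.28 at 4 weeks, and 8.33 and 7.71 at 6 weeks. In mutants it read 7.96 and 7.70, then 7.80 and 7.58, then 7.09 and 7.02. At each age both mutant arrays lay below both wild-type arrays. Ttk was the 1 gene of 40 for which this held at all 3 ages, against 2.08% of all tested genes with the mutant lower throughout. A count of 1 in 40 is near that share, so it does not set the 40 genes apart from others.

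The average difference of Ttk was -0.87 ± 0.16 (SE, 6 arrays per genotype), with an unadjusted p of 0.000381 and an adjusted p of 0.055 in limma, just outside the threshold. It was past the threshold in 3 of 10 other settings, with the run of serial numbers as a block, with a minimum level of 6 and with the random replicate block (adjusted p = 0.0278, the lowest), and had an adjusted p up to 0.153 in the other 7. By age it was -0.74 ± 0.27 at 2 weeks, -0.88 ± 0.27 at 4 weeks and -0.97 ± 0.27 at 6 weeks, and the differences between ages were not past the threshold (adjusted p = 0.91 to 1.0). Without 2-week mutant replicate 3 the average was -0.82 ± 0.17 (adjusted p = 0.0757), and without 2-week mutant replicate 2 it was -0.91 (adjusted p = 0.0157). Against the wild-type array with a serial number in the same run as the mutants, the difference was -1.18 at 4 weeks and -0.66 at 6 weeks. The other probe set assigned to Ttk was called present on 0 of 12 arrays.

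**Figure D4:**
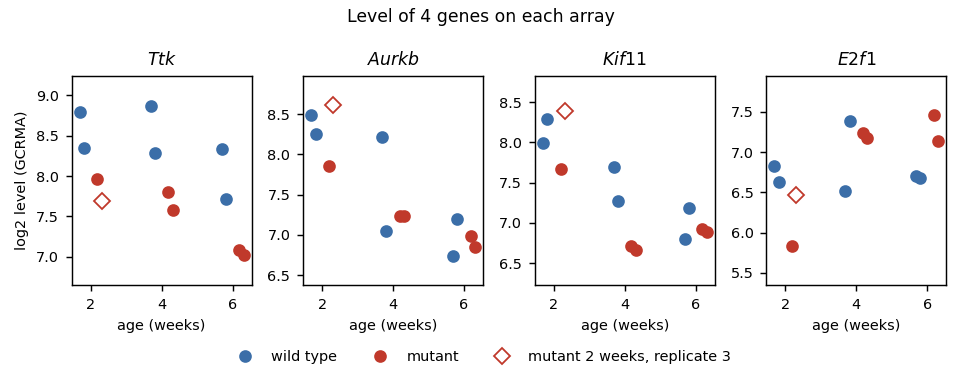
Log2 GCRMA level of Ttk, Aurkb, Kif11 and E2f1 on each of 12 arrays by age, with wild type in blue, mutant in red and 2-week mutant replicate 3 as an open diamond. All 4 vertical axes span the same number of log2 units. The mutant points of Ttk lie below the wild-type points at each age, while those of Aurkb and Kif11 lie among them at 2 and 6 weeks.

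The sign of the genotype difference was the same at all 3 ages for 4 of 40 genes, negative for Ttk, Kif11 and Aurkb and positive for Ccnd1, and differed between ages for the other 36. At 2 weeks the median over 40 genes was -0.10, with 32 negative, against 56.8% of all tested genes. It rested on single arrays, at -0.45 with 37 negative without mutant replicate 3 and at 0.26 without mutant replicate 2. At 4 weeks it was -0.20, with 35 negative, against 51.4%. At 6 weeks it was 0.23, with 33 positive, against 43.9%. Beside Ttk, the lowest unadjusted p at 4 weeks was that of Kif11 (-0.80 ± 0.26, adjusted p = 1.0), for which both mutant arrays lay below both wild-type arrays.

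At 6 weeks the highest value was that of Bub1, at 0.93 ± 0.45 (adjusted p = 0.458), followed by Aurka at 0.80 ± 0.90. E2f1 differed by 0.61 ± 0.30 (adjusted p = 0.469) and Ccna2 by 0.51 ± 0.27. The 6-week mutants were above the wild type on both arrays each for 16 of 40 genes, against 19.8% of all tested genes, 9 of them mitotic (Ccna2, Ccnb2, Cdk1, Foxm1, Aurka, Plk1, Bub1, Kif23 and Top2a, with the chosen probe set of Foxm1 called absent). The difference between the genotype effects at 6 and 4 weeks was positive for 36 of 40 genes, with a median of 0.46, against 46.9% of all tested genes. None of these interaction terms was past the threshold in limma (0% of all tested genes), and 0 of the 40 had an unadjusted p under 0.05, against 2.93%.

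Replicates of a group also differed in the mitotic genes together. In wild type at 4 weeks, replicate 1 was above replicate 3 for 24 of 24 mitotic genes, with a median gap of 0.90, against 0.19 over all tested genes. In wild type at 6 weeks, replicate 1 was below replicate 3 for 22 of 24, with a median gap of 0.50, against 0.19. In mutants at 2 weeks, replicate 2 was below replicate 3 for 23 of 24, the exception being Ttk, with a median gap of 0.74, against 0.30. The S phase genes had median gaps of 0.20, 0.31 and 0.42 in these 3 groups. In mutants at 6 weeks the mitotic genes had a median gap of 0.13, against 0.17 over all tested genes, so the replicates there were no farther apart than for other genes.

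The genotype difference of the mitotic genes differed with the wild-type array that the mutants were set against. The 4-week mutants were below wild-type replicate 1 for 24 of 24 mitotic genes (median -0.80) and above wild-type replicate 3 for 18 of 24 (median 0.17). The 6-week mutants were above wild-type replicate 1 for 23 of 24 (median 0.55) and above wild-type replicate 3 for 11 of 24 (median -0.01). The wild-type array in the mutants' run of serial numbers was replicate 1 at 4 weeks and replicate 3 at 6 weeks. At 2 weeks, mutant replicate 3 was the highest of the 12 arrays for 15 of the 24 mitotic genes, and mutant replicate 2 was the lowest of the 4 arrays of that age for 23 of 24. Without replicate 3 the median genotype difference of the mitotic genes at 2 weeks was -0.50, against -0.11 with it. At 6 weeks, wild-type replicate 1 was the lowest of the 12 arrays for 17 of the 24.

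Other genes of the pathway were taken from 4 further lists. On average over ages, none of 17 Cdk inhibitors and pocket proteins, 21 G1 regulators, 41 further replication genes or 57 further mitosis genes was called between the genotypes, where 0.643% of all tested genes were. At an unadjusted p under 0.05 there were 5, 2, 10 and 7 of them, against 14.8% of all tested genes. The values farthest from zero among the inhibitors were those of Cdkn2b, the Cdk4 and Cdk6 inhibitor p15, at 0.46 ± 0.17 (adjusted p = 0.26), and Gadd45a, a stress-induced growth arrest gene, at 0.35 ± 0.15. Among the G1 regulators, the values were 0.78 ± 0.51 for Mycn, a Myc family factor, and 0.38 ± 0.37 for E2f7, a repressing E2F, but 0.29 and -0.01 without 2-week mutant replicate 3. Among the mitosis genes they were those of Cenpi, a kinetochore protein, at -0.61 ± 0.16 (adjusted p = 0.127), and Zwilch, a checkpoint protein, at -0.44 ± 0.22. Among the replication genes, Pola1, the catalytic subunit of polymerase alpha, gave -0.40 ± 0.09 (adjusted p = 0.102) and Gins2, a helicase subunit, -0.44 ± 0.12.

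Between 6 and 2 weeks in wild type, 1 of the 57 further mitosis genes rose and 4 fell, where 4.82% of all tested genes were called and 1.51% were called lower. A negative difference was found for 50 of the 57, against 37.7% of all tested genes. Lmnb1, a lamin of the nuclear envelope, fell by 1.53 ± 0.28 (adjusted p = 0.0227). Smc4, a condensin subunit, fell by 1.28 ± 0.28 (adjusted p = 0.0381). Kif18b, a microtubule-depolymerizing kinesin, fell by 1.95 ± 0.45 (adjusted p = 0.0466). The chromatin protein Hmgb2 was the fourth that fell. Pttg1, securin, the inhibitor of separase, rose by 0.95 ± 0.14 (adjusted p = 0.0122). In mutants 2 of the 57 rose and 3 fell, where 9.94% of all tested genes were called. They included Lmnb1 (-1.64 ± 0.28), Smc4 (-1.06 ± 0.28) and Hmgb2 (adjusted p = 0.0163), while Espl1, separase itself, rose by 0.95 ± 0.20 (adjusted p = 0.0261).

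Among the 41 replication genes, Rpa1, a subunit of the protein that coats single-stranded DNA, was the 1 call in wild type, where 4.82% of all tested genes were called, with a rise of 0.62 ± 0.13 (adjusted p = 0.0361). In mutants it rose by 0.54 ± 0.13, and the maintenance methyltransferase Dnmt1 rose by 0.83 ± 0.16 (adjusted p = 0.0214). These were the 2 mutant calls of the 41, where 9.94% of all tested genes were called. Of the 21 G1 regulators, 2 were called in wild type and 3 in mutants, against the same 4.82% and 9.94%. Ccnd2, a second D-type cyclin, rose by 1.34 ± 0.13 in wild type (adjusted p = 0.00545) and by 0.95 ± 0.13 in mutants (adjusted p = 0.00975). E2f8, an E2F that represses its targets, fell by 1.18 ± 0.25 in wild type (adjusted p = 0.0357). In mutants Cdk6, the kinase of D-type cyclins, rose by 0.69 ± 0.16, and E2f5, an E2F bound by pocket proteins, fell by 0.92 ± 0.22. For no gene of these lists did limma call a difference between the genotypes in the change from 2 to 6 weeks (0% of all tested genes). Over these lists, the mutant calls of Cdk6, E2f5, Rpa1 and Smc4 were lost without 2-week mutant replicate 3 (adjusted p = 0.0766, 0.108, 0.0924 and 0.135).

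Of the 17 inhibitors and pocket proteins, 1 was called in wild type and 1 in mutants, where 4.82% and 9.94% of all tested genes were called. Gadd45g, a stress-induced inhibitor of growth, fell by 1.52 ± 0.25 in wild type (adjusted p = 0.017). Its mutant arrays read 9.63 and 9.15 at 2 weeks and 9.15 and 8.82 at 6 weeks, without a call. The difference between the genotypes in the change of Gadd45g was not past the threshold in limma (1.12 ± 0.35, adjusted p = 0.838). In mutants Cdkn1b, which encodes the Cdk inhibitor p27, fell by 1.33 ± 0.19 (adjusted p = 0.0101), against -0.38 ± 0.19 in wild type, and the difference between the genotypes was not past the threshold (-0.95 ± 0.27, adjusted p = 0.838).

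Markers of other cells moved with some of these groups, and their part in the values above was not tested. For the hair matrix and shaft list, 18 of 21 genes were tested, and the summed level was 105 and 122 in wild type at 2 weeks, 71.3 and 72.9 at 4 weeks, and 102 and 68.3 at 6 weeks. In mutants it was 216 on replicate 3 at 2 weeks and lower than both wild-type arrays on replicate 2, then 70.6 and 70.9 at 4 weeks, and 73.9 and 79.4 at 6 weeks. The 6-week wild-type array with the higher hair sum, replicate 1, was the one with the lower mitotic genes. For activated epidermis, 7 of 7 genes were tested, with sums of 68.6 and 68.7, 49.1 and 53.0, then 49.6 and 52.2 in wild type, and 76.5 and 77.2, 52.4 and 75.9, then 78.5 and 82.9 in mutants. For macrophages, 9 of 9 genes gave sums of 83.6 to 91.0 in wild type and 91.7 to 98.6 in mutants, without overlap. For neutrophils, 4 of 7 genes gave 19.6 to 28.4 in wild type and 22.6 to 35.9 in mutants. S100a8 and S100a9 are among these and also in the activated epidermis list, so these sums are not independent. For T cells, 6 of 8 genes gave 45.7 to 48.1 in wild type and 47.2 to 52.1 in mutants. For red cells, 2 of 8 genes gave 10.4 to 13.0 and 8.46 to 10.3, and for endothelium 5 of 5 genes gave 36.1 to 40.7 and 37.2 to 39.9. The scale has a floor of 2.14, so no marker reads 0.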

How the data were processed

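Total RNA of mouse ears was hybridised to 12 Affymetrix whole-genome expression arrays, in 6 groups of 2. The log2 values were deposited by the authors after GCRMA, per the series design text, and run from a floor of 2.14 to 16.6. They equal the series matrix to within 5e-09. Linear intensity values from MAS5, per the submitters' processing notes, were deposited by the authors for each array together with detection calls. They gave the detection calls and, above a floor of 50, an alternative. Versions of GCRMA and MAS5 are not given in the sources used here.

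Array annotation named 1 gene for 34958 probe sets, several for 932 and none for 9211. Genes with a value of 4 or more on at least 2 arrays were tested in limma 3.58.1 (R 4.3.3) with a mean for each group, 6 residual degrees of freedom, a variance trend and Benjamini-Hochberg adjustment over 11984 genes. The limma script was tested on simulated data. The number of arrays limits the precision. For the 2 genes of each role with the highest absolute difference between 6 and 2 weeks in wild type, the values on the arrays compared are given, and other values were chosen after they were seen. The member genes, lists and tests were chosen with earlier results of these data known. The rank product criterion was recomputed in Python 3.11.15 with numpy 2.4.6 and pandas 2.3.3, and figures were drawn with matplotlib 3.10.9.

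The alternatives changed the filter, the probe set rule (means), the signal (MAS5), the scaling (median or quantile), the variance prior, the arrays fitted and the blocks (run of serial numbers, replicate number), or left out each array in turn. Replicate numbers are shared by 1 pair per age, whose deviations correlated at -0.12, 0.19 and 0.25, so the numbers were not taken to pair samples.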

Additional observations from a re-analysis of the deposited data

Results flagged for a closer look

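Of the 40 genes, 4 had both mutant arrays on one side of both wild-type arrays at one age and on the other side at another. The share of all tested genes with such a pattern was not counted, so this count does not set the 40 genes apart from others. At 6 weeks alone, 19.8% of all tested genes had both mutant arrays above both wild-type arrays. For each of the 4 genes, the difference between the genotype effects was tested in limma, and none passed the threshold. The genotype effect on E2f1 was higher at 6 than at 2 weeks by 1.19 ± 0.42 (log2, adjusted p = 0.838). For Cdt1 it was higher by 0.49 ± 0.22 (adjusted p = 0.838). For Rrm1 it was higher at 6 weeks by 0.27 ± 0.14 than at 2 weeks (adjusted p = 0.838) and by 0.30 ± 0.14 than at 4 weeks (adjusted p = 1.0). For Pcna the effect at 4 against 2 weeks was -0.32 ± 0.14 (adjusted p = 1.0). With 2 arrays per group, no group was large enough to look for a single array far from the others.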

How the results depend on the processing

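Over all single-array omissions, the count of the 40 genes called ranged from 0 to 1 for the average genotype difference, 0 to 1 for wild type at 4 against 2 weeks, 0 to 4 for wild type at 6 against 2 weeks, 0 to 2 for mutants at 4 against 2 weeks and 0 to 4 for mutants at 6 against 2 weeks. It stayed at 0 in the other comparisons. The share of all tested genes that were called also changed between settings and is not given here for each. The counts in this paragraph therefore do not set the 40 genes apart from others. Other settings moved counts as follows. The average genotype count became 1 (Ttk) with a minimum of 6, with the run of serial numbers as a block, and with the random replicate block. The count for wild type at 6 against 2 weeks became 0 with no filter, 2 with a minimum of 6 (Ccnd1, Kif11), 0 with MAS5 signals and 2 with quantile normalization (Aurkb, Kif11). For mutants at 4 against 2 weeks it became 0 with no filter, with MAS5 signals and with only the arrays compared. For mutants at 6 against 2 weeks it became 0 with no filter, 1 with the mean of probe sets (Kif11), 0 with MAS5 signals and 0 with only the arrays compared. The cause was not tested. The replicate block (consensus correlation 0.43) moved the Ttk call (adjusted p = 0.0278) and none of the counts in the other 12 comparisons by over 1.5 times.

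The difference of Ccne2 between 6 and 2 weeks in wild type turned to -0.0087 with MAS5 signals, and single omissions gave -0.24 (without 6-week replicate 1) to 0.53. That of Rrm1 turned to 0.0024 without 2-week replicate 1 and to 0.0424 without 6-week replicate 3, in a range from -0.10 to 0.0424. Of 789 recomputed gene values, 707 kept direction and side of the threshold, 52 lost it, 26 gained it and 4 turned.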
